A study of Rattus norvegicus with 12 samples.

Results

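Myelin and oligodendrocyte genes were examined in rat retina after an injection that overstimulates glutamate receptors. The 8 genes were Mbp, Mag, Ermn, Mobp, Mog, Cnp, Olig1 and Olig2, chosen by gene name from the 30560 genes of the deposited table, which held 1 row for each of them. Total RNA of 12 retinal libraries was sequenced, each labelled as a separate rat. In 6 of them 2 µL of 20 mM NMDA, which activates the NMDA class of glutamate receptors and in excess injures retinal neurons, had been injected into the vitreous. The other 6 had received 2 µL of PBS, the buffer alone, by the same route. The sources used here did not give strain, age, sex or the time between injection and collection. The libraries are named by group and label number, NMDA 1 to NMDA 6 and PBS 1 to PBS 6.

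Oligodendrocytes wrap axons of the central nervous system in myelin, a stack of membrane held together by a small set of abundant proteins. In rats the axons of retinal ganglion cells are bare inside the eye and gain their myelin behind the optic nerve head, so the retina itself normally holds no myelinating oligodendrocytes. Mbp and Mobp encode basic proteins that compact the membrane stack. Mog encodes a surface protein of the outermost myelin layer, and Mag an adhesion protein of the innermost layer that faces the axon and binds the Nogo receptor. Cnp encodes an enzyme of the uncompacted myelin channels, and Ermn encodes ermin, a protein of the oligodendrocyte cytoskeleton. Olig1 and Olig2 encode basic helix-loop-helix transcription factors that set up the lineage.

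The data split the 8 genes. After NMDA, Cnp rose, and Mbp, Ermn and Mag fell. Mobp, Mog, Olig1 and Olig2 were at or near 0 in every library and could not be compared. The 8 genes were thus not all detected together, and the defining oligodendrocyte genes among them were near 0. Opalin, a marker of mature oligodendrocytes, had 0 counts in all 12 libraries, which allows up to 0.00918 CPM over all libraries (3 counts of the summed library size, counting error only). Of 10 other transcription factors of the lineage Nkx2-2 had 0 counts in all 12 libraries, and 8 passed the filter on low counts. Of 12 precursor genes Gpr17 and Neu4 had 0 counts in all 12 libraries, and 10 passed the filter, several of which other retinal cells also express. In bulk RNA, fewer cells that express a gene and less RNA per cell cannot be told apart.

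Depth ran from 16415611 to 34022023 counts per library. Levels below are CPM (counts scaled by library size and TMM factor), and differences are log2 fold changes of NMDA over PBS with their SE, tested with edgeR's quasi-likelihood test (two-sided, Benjamini-Hochberg adjustment over 16260 tested genes, threshold 0.05). Of the 8 members, 4 passed the filter on low counts (Mbp, Mag, Ermn and Cnp), and all 4 of these passed the test. Mag passed the filter mainly through PBS libraries, as given below. Over all tested genes 37.9% passed the test, 20.4% higher and 17.5% lower after NMDA. In 18.1% of tested genes the groups did not overlap, 9.43% with all NMDA libraries higher and 8.66% with all NMDA libraries lower. The groups separated along the first principal component (44.7% of the variance), and the second had NMDA 1 at 62.2 and NMDA 3 at -32.5. NMDA 3 and PBS 5 stood apart in melanocyte genes, as given below. NMDA 1 stood apart in 12 lens markers, which summed to 72.9 CPM there. They summed to 1024 to 3198 CPM in the other NMDA libraries and 597 to 2776 CPM in PBS libraries, and none passed the test. The sums of melanocyte and Schwann cell genes were also lowest in NMDA 1, at 26.6 and 58.3 CPM. The part of such tissue in the levels of the members was not tested.

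The promoter sequences of Cnp and Mag are shown to set the member that rose beside the member with the steepest fall. Windows were matched by symbol for 5 of the 8 members (Mbp, Mag, Mobp, Cnp and Olig2), on the build GRCr8. The sequences lie upstream of the annotated gene, on the gene's strand, and capitals mark E-boxes (CANNTG, a palindrome read on both strands at once), the motif that basic helix-loop-helix factors such as Olig2 can bind.
Cnp: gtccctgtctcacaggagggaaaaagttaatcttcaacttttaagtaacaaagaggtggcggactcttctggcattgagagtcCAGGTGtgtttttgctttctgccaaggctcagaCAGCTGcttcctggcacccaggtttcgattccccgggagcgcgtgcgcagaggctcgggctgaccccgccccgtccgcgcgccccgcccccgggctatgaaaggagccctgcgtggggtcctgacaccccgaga
Mag: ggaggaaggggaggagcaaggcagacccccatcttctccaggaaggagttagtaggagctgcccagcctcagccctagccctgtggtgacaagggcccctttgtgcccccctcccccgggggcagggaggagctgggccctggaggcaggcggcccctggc

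The Cnp sequence spans chr10:86011254-86011503 on the plus strand, 250 bases, with 2 E-boxes. The Mag sequence spans chr1:95291134-95291294 on the minus strand, 161 bases that stop at the edge of the annotated gene, with 0 E-boxes. The full window of 250 bases before the Mag start, which runs into the annotated gene, held 1 E-box. The 2 windows of Mbp, which also fell, held 0 and 3 E-boxes, that of Mobp 1 and that of Olig2 0. An E-box was found in 65.5% of all 33469 RefSeq windows of 250 bases before a start, so its presence is common. A match or its absence describes the letters of these windows alone.

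**Figure D1:**
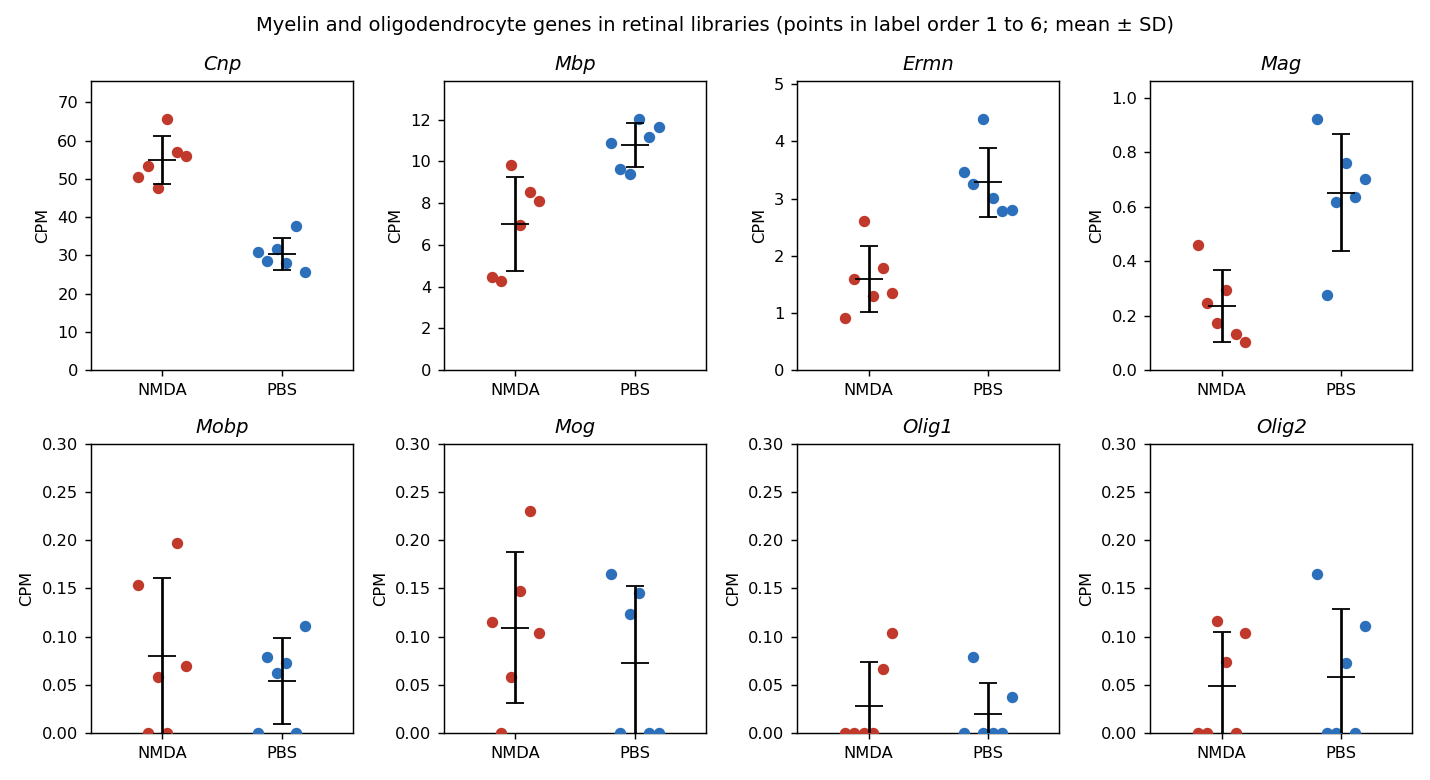
CPM of each member in each library, NMDA on the left (red) and PBS on the right (blue), with the mean and SD over 6 libraries in black (bars that would pass below 0 end at the axis). Cnp sits between 47.7 and 65.7 CPM in NMDA libraries and between 25.6 and 37.7 in PBS libraries, whereas the lower row (Mobp, Mog, Olig1, Olig2) stays under 0.3 CPM throughout.

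Cnp, the enzyme gene of uncompacted myelin, was the most abundant member and the only tested member that rose. It had 50.4, 53.4, 47.7, 65.7, 57.1 and 55.9 CPM in NMDA 1 to NMDA 6, against 30.98, 28.6, 31.6, 27.97, 37.7 and 25.6 CPM in PBS 1 to PBS 6. The groups did not overlap, with NMDA 3 the lowest NMDA library and PBS 5 the highest PBS library. The mean was 55.1 ± 6.26 CPM after NMDA and 30.4 ± 4.19 CPM after PBS (SD, n = 6 each). The log2 fold change was 0.86 ± 0.10, which is 1.81-fold (edgeR adjusted p = 5.78e-05). Of all tested genes, 5.91% had a larger log2 fold change. Raw counts of Cnp ran from 1315 to 1785 in NMDA libraries and from 510 to 951 in PBS libraries, so that counting error is small beside the spread between libraries. The gene (ENSRNOG00000017496) is placed on chromosome 10, 85511160 to 85517720, as the deposited table has it. The sources used here name no genome build for these coordinates.

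Markers of microglia and macrophages moved in the same direction as Cnp. Of 10 such markers, 8 rose and P2ry12 fell, and their summed level was 103 to 219 CPM in NMDA libraries and 58.9 to 84.0 CPM in PBS libraries. Gfap, the intermediate filament gene of astrocytes and stressed Müller glia, averaged 424 ± 181 CPM after NMDA and 150.3 ± 65.0 CPM after PBS (SD, n = 6 each; log2 fold change 1.50 ± 0.35, edgeR adjusted p = 0.00558). Gfap was 1 of 2 astrocyte markers that rose, while 3 of the 10 fell and 5 did not pass. Of 10 Müller glia markers, 2 rose, 7 fell and 1 did not pass, with a summed level of 4030 to 4935 CPM in NMDA libraries and 5039 to 6738 CPM in PBS libraries. The part of these cell types in the rise of Cnp was not tested.

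Mbp, the basic protein gene of compact myelin, fell. It had 4.48, 4.25, 9.82, 6.96, 8.53 and 8.11 CPM in NMDA 1 to NMDA 6, against 10.9, 9.65, 9.41, 12.05, 11.1 and 11.6 CPM in PBS 1 to PBS 6. The groups overlapped through NMDA 3, which lay above PBS 2 and PBS 3, while NMDA 1 and NMDA 2 were the lowest. The mean was 7.03 ± 2.25 CPM after NMDA and 10.8 ± 1.06 CPM after PBS (SD, n = 6 each). The log2 fold change was -0.62 ± 0.19 (edgeR adjusted p = 0.0207). The Mbp gene (ENSRNOG00000016516) covers 110527 bases of chromosome 18, 75855878 to 75966404. In RefSeq GRCr8 its windows mark 2 starts 79593 bases apart. In mice the upstream part of this gene gives the golli transcripts, which neurons and immune cells use and which do not encode the myelin protein alone. Counts per gene do not separate the starts, so that the level of Mbp cannot be assigned to either kind of transcript.

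Ermn, the ermin gene, fell with no overlap between groups. It had 0.92, 1.59, 2.61, 1.29, 1.78 and 1.35 CPM in NMDA 1 to NMDA 6, against 3.46, 3.25, 4.39, 3.01, 2.78 and 2.81 CPM in PBS 1 to PBS 6. NMDA 3 again came nearest to the PBS libraries, and NMDA 1 was the lowest. The mean was 1.59 ± 0.58 CPM after NMDA and 3.28 ± 0.604 CPM after PBS (SD, n = 6 each). The log2 fold change was -1.03 ± 0.22 (edgeR adjusted p = 0.00275). Only 1.48% of tested genes had a lower log2 fold change. Counts were 24 to 90 in NMDA libraries and 70 to 105 in PBS libraries. The table places Ermn (ENSRNOG00000021472) on chromosome 3, 42626309 to 42633744.

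Mag, the adhesion gene of the innermost myelin layer, had the steepest fall of the 4 tested members at a level of few counts. Its counts were 12, 7, 6, 8, 4 and 3 in NMDA 1 to NMDA 6, against 28, 7, 10, 21, 16 and 19 in PBS 1 to PBS 6. PBS 2, with 0.274 CPM, lay below NMDA 1 (0.460 CPM) and NMDA 4 (0.294 CPM), so that the groups overlapped. The mean was 0.235 ± 0.131 CPM after NMDA and 0.653 ± 0.216 CPM after PBS (SD, n = 6 each). The log2 fold change was -1.49 ± 0.36 (edgeR adjusted p = 0.00573). A lower log2 fold change was found in 0.24% of tested genes. Counts of 10 or more, the minimum of the filter, were found in NMDA 1 alone among NMDA libraries. Among PBS libraries they were found in all but PBS 2. Mag thus entered the test mainly through PBS, the group where it was higher. With the filter removed its log2 fold change was -1.49 and it passed (edgeR adjusted p = 0.00775). Unlike Mbp and Ermn, whose lowest or nearly lowest value was in NMDA 1, Mag had its highest NMDA value there. Mag (ENSRNOG00000021023) lies on chromosome 1, 86148228 to 86163656, in the table.

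Markers of several retinal cell types fell beside Mbp, Ermn and Mag, among them 7 of 10 of Müller glia and 6 of 8 of the pigment epithelium. Of 12 ganglion cell markers 11 fell, and their summed level was 222 to 584 CPM in NMDA libraries and 838 to 1019 CPM in PBS libraries. The highest ganglion cell sum among the NMDA libraries, 584 CPM, was in NMDA 3, the library with the highest Mbp and Ermn of its group, but NMDA 1, with the lowest Ermn, had the next highest sum, 535 CPM. The part of these cell types in the falls of Mbp, Ermn and Mag was not tested. By two-sided exact permutation of log2 CPM over the 924 assignments of libraries, Ermn and Cnp gave p = 0.00216, the smallest possible, and Mbp and Mag gave p = 0.00649 (n = 6 each, unadjusted).

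**Figure D2:**
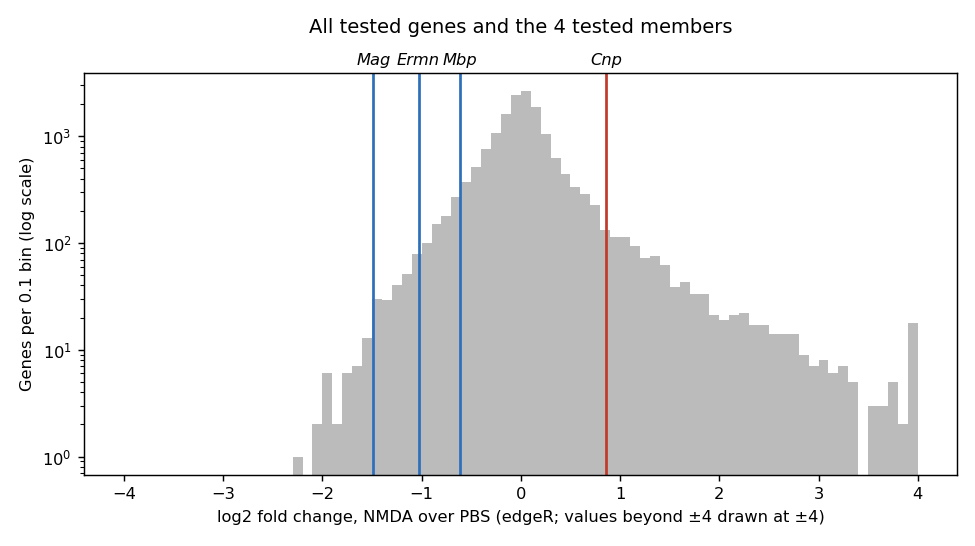
Number of tested genes (log scale) per 0.1 bin of the log2 fold change of NMDA over PBS, with vertical lines at the 4 tested members. Mag (-1.49), Ermn (-1.03) and Mbp (-0.62) stand on the left flank, and Cnp (0.86) on the right flank.

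Mobp and Mog, which encode proteins found in central myelin, were barely counted. Mobp had 4, 0, 2, 0, 6 and 2 counts in NMDA 1 to NMDA 6, against 0, 2, 1, 2, 0 and 3 counts in PBS 1 to PBS 6. Summed over each group, Mobp had 14 counts after NMDA, with an exact Poisson interval (95%, counting error only) of 7.65 to 23.5, and 8 counts after PBS, with an interval of 3.45 to 15.8. Mog had 3, 0, 2, 4, 7 and 3 counts in NMDA 1 to NMDA 6, against 5, 0, 2, 4, 0 and 0 counts in PBS 1 to PBS 6. Its sums were 19 counts after NMDA (11.4 to 29.7) and 11 after PBS (5.49 to 19.7). For both genes the groups overlapped, and a difference was not detectable at this depth. The Mog row shares 2152 bases of its span with Zfp57, which averaged 12.7 CPM after NMDA and 14.8 CPM after PBS. The strand setting was not given, so that Mog counts cannot be told apart from Zfp57 reads in the shared bases.

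The lineage factors Olig1 and Olig2 were likewise near 0. Olig1 had counts in NMDA 5 (2) and NMDA 6 (3) alone among NMDA libraries, and in PBS 2 (2) and PBS 6 (1) alone among PBS libraries. Olig2 had 0, 0, 4, 2, 0 and 3 counts in NMDA 1 to NMDA 6, against 5, 0, 0, 2, 0 and 3 counts in PBS 1 to PBS 6. Olig1 summed to 5 counts after NMDA and 3 after PBS, and Olig2 to 9 after NMDA and 10 after PBS. A difference was not detectable at this depth for either gene. With the filter on low counts removed, log2 fold changes were 0.55 ± 0.84 for Mobp, 0.56 ± 0.82 for Mog, 0.44 ± 1.10 for Olig1 and -0.32 ± 0.92 for Olig2, and none of these 4 passed (edgeR adjusted p from 0.671 to 0.850). Intervals of 2 SE on either side of these 4 values hold changes as large as that of Cnp.

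Per length, on the deposited FPKM scale, the levels of the members can be ordered. After NMDA, Cnp had 11.4 ± 1.36 FPKM, Mbp 1.83 ± 0.598, Ermn 0.455 ± 0.166 and Mag 0.0735 ± 0.0398 (SD, n = 6). After PBS, Cnp had 6.07 ± 0.862 FPKM, Mbp 2.71 ± 0.268, Ermn 0.907 ± 0.167 and Mag 0.198 ± 0.0650 (SD, n = 6). In both groups, Cnp lay above Mbp, Mbp above Ermn and Ermn above Mag in every library. Mog followed with 0.0480 ± 0.0349 FPKM after NMDA and 0.0306 ± 0.0340 after PBS. Mag and Mog overlapped after NMDA but not after PBS. Mobp, Olig1 and Olig2 averaged under 0.02 FPKM in each group, and their ranges overlapped each other and that of Mog.

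The tested members other than Cnp did not vary closely together within the groups. The deviations of Mbp, Ermn and Mag from their group means, on the log2 CPM scale, correlated with the mean deviation of the 3 at r = 0.51, 0.53 and 0.41 over 12 libraries, although each gene is part of that mean. The same measure gave -0.08 for Cnp. Among 13778 other genes (mean log2 CPM not under 1), the 5 most like that mean were Trim7 (r = 0.84), H1f0 (0.82), Hivep1 (0.81), and 2 genes without a name in the table (ENSRNOG00000063417 and ENSRNOG00000066414, both 0.80). Trim7, a ubiquitin ligase gene, averaged 2.43 ± 0.775 CPM after NMDA and 3.37 ± 0.440 after PBS (SD, n = 6 each) and did not pass (log2 fold change -0.47 ± 0.19, edgeR adjusted p = 0.0683). When NMDA 3 was left out it was at -0.65 and passed (edgeR adjusted p = 0.0035). The linker histone gene H1f0 (-0.07) and the zinc finger gene Hivep1 (0.04) did not pass either. These likenesses are the largest of many and are given as a description.

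Other products of mature oligodendrocytes did not share 1 direction. Of 22 listed genes 21 were in the table and 15 were tested. Of these 1 rose, 3 fell and 11 did not pass, with a median log2 fold change of 0.11 against 0.01 over all tested genes. Levels were far apart, from 0 counts of Opalin to Cryab at 291 ± 166 CPM after NMDA and 218 ± 109 CPM after PBS (SD, n = 6 each). The counts of this list cannot be assigned to oligodendrocytes alone. Omg, which encodes a surface glycoprotein of oligodendrocytes and neurons that binds the same receptor as Mag, averaged 19.1 ± 3.94 CPM after NMDA and 34.6 ± 3.45 CPM after PBS, without overlap (SD, n = 6 each; -0.86 ± 0.12, edgeR adjusted p = 0.000203). Tspan2, a tetraspanin gene of oligodendrocytes, fell by 0.68 (SE 0.20, edgeR adjusted p = 0.0170). Sirt2, a deacetylase gene, fell by 0.14 on the log2 scale and Anln, the anillin gene, rose by 0.67. The call of Sirt2 ended in 9 of 12 fits that left out 1 library (all but those without NMDA 1, NMDA 4 or PBS 5; adjusted p up to 0.0812) and with library size only. That of Anln ended in 10 of 12 (all but those without NMDA 1 or NMDA 4; adjusted p up to 0.0942, log2 fold change 0.44 without NMDA 6).

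Genes of myelin lipid synthesis were tested in part. Of 9 genes, 6 were tested, 3 rose, 0 fell and 3 did not pass, with a median of 0.19. Over all tested genes 20.4% rose and 17.5% fell, and 6 genes are too few to set the list apart from these shares. Gltp, a glycolipid transfer protein gene, averaged 43.0 ± 8.69 CPM after NMDA and 17.3 ± 3.02 CPM after PBS, without overlap (SD, n = 6 each; 1.31 ± 0.15, edgeR adjusted p = 6.18e-05). Cers2, a ceramide synthase gene, rose by 0.38 and Plpp1, a lipid phosphatase gene, by 0.56. The call of Plpp1 ended without NMDA 3, NMDA 6, PBS 1, PBS 2, PBS 3, PBS 4 or PBS 6 (adjusted p up to 0.0722, log2 fold change 0.40 without NMDA 6). Aspa, the aspartoacylase gene, was at -0.24 ± 0.20 (edgeR adjusted p = 0.378). The genes that make the myelin galactolipids, Ugt8, Fa2h and Gal3st1, did not pass the filter and had 53, 46 and 28 counts in all NMDA libraries together, against 47, 30 and 43 counts in all PBS libraries together.

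**Figure D3:**
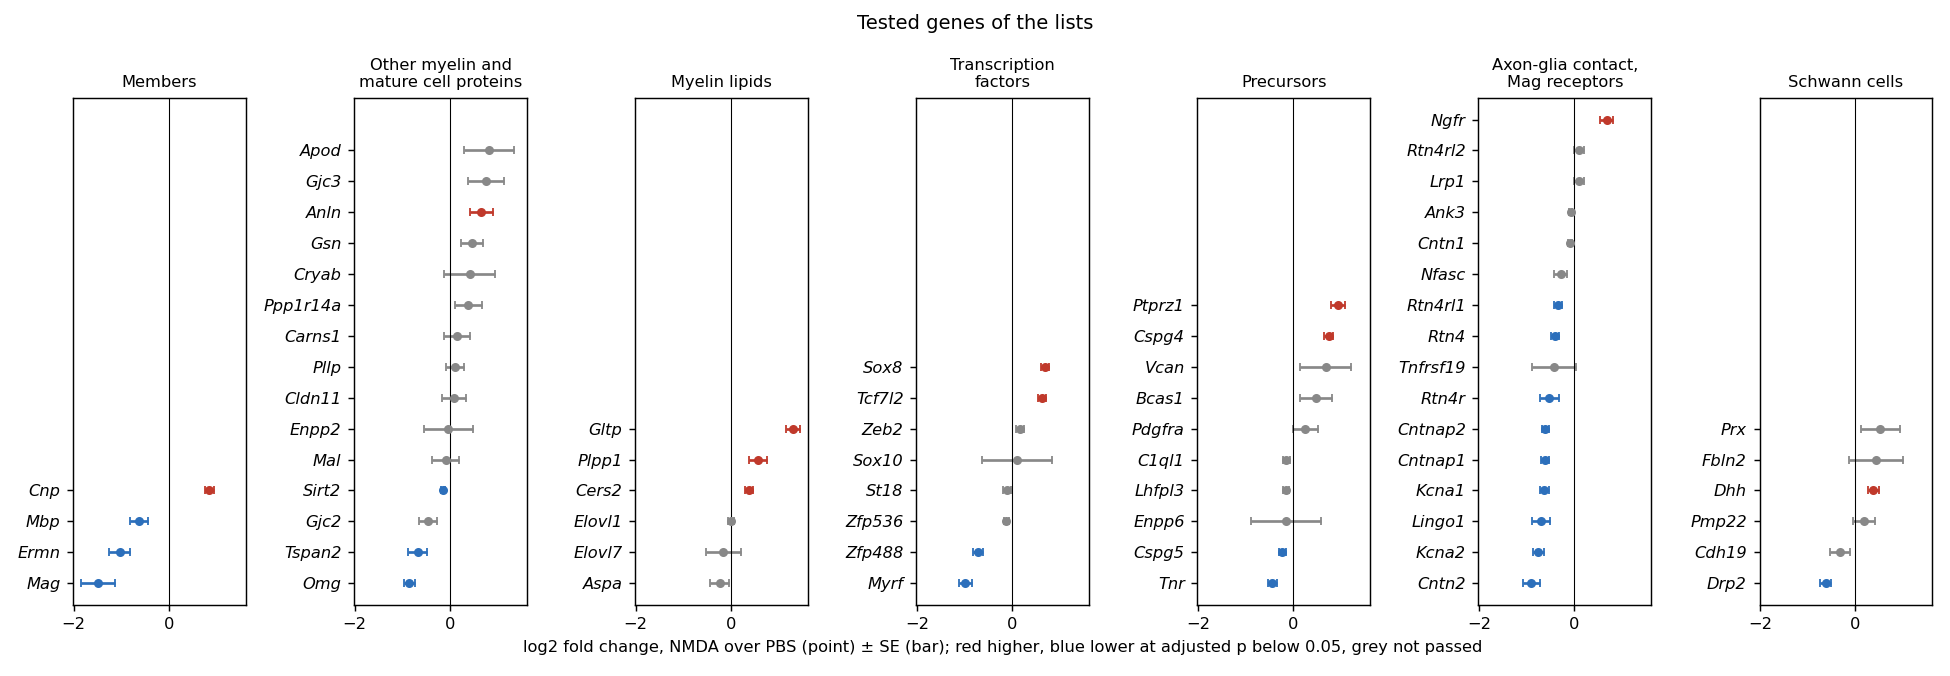
Log2 fold change of NMDA over PBS (points) with its SE (bars) for each tested gene of the members and of 6 related lists, red where higher and blue where lower at an adjusted p below 0.05, grey where not passed. Among the members Cnp (0.86) stands right of 0 and Mbp, Ermn and Mag left of it, and the axon-glia contact list has 9 of 16 genes in blue.

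Transcription factors of the lineage other than Olig1 and Olig2 moved both ways. Of 10 factors 8 were tested, 2 rose, 2 fell and 4 did not pass (median 0.00). Myrf, which drives myelin gene transcription in oligodendrocytes and is also expressed in the pigment epithelium, averaged 2.91 ± 0.583 CPM after NMDA and 5.76 ± 0.600 CPM after PBS, without overlap (SD, n = 6 each; -0.98 ± 0.14, edgeR adjusted p = 0.000208). Beside Myrf, 6 of 8 pigment epithelium markers fell, 1 rose and 1 did not pass. Among them Rpe65, the retinoid isomerase gene of that tissue, averaged 3.12 ± 1.59 CPM after NMDA and 10.01 ± 3.08 CPM after PBS (SD, n = 6 each), without overlap. The list summed to 819 to 1005 CPM in NMDA libraries and 1125 to 1226 CPM in PBS libraries, but most of that sum came from Bsg, which many cells express (676 CPM after NMDA and 762 CPM after PBS on average), and Rlbp1, which Müller glia share. Their part in the fall of Myrf was not tested. Zfp488, a repressor gene that acts with Olig2 in mouse oligodendrocytes, fell by 0.71, whereas Sox8 and Tcf7l2 rose by 0.69 and 0.63 on the log2 scale (edgeR adjusted p = 0.000297, 0.000119 and 0.000159), all 3 without overlap. These 3 genes averaged 9.37 CPM or more in each group, whereas Olig2 averaged 0.0490 CPM after NMDA and 0.0580 CPM after PBS. The cells that gave the RNA of these 3 genes were not identified. With PBS 5 and NMDA 3 left out together, 4 factors of the list fell in place of 2.

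Sox10, which oligodendrocytes, Schwann cells and melanocytes all express, rested on 2 libraries. It had 0.498, 0.603, 6.94, 0.773, 0.955 and 0.416 CPM in NMDA 1 to NMDA 6, against 1.19, 1.29, 1.11, 0.907, 4.21 and 0.923 CPM in PBS 1 to PBS 6. NMDA 3 and PBS 5 were far above the other libraries of their groups. Its log2 fold change was 0.10 ± 0.74 (edgeR adjusted p = 0.933, not passed). When NMDA 3 was left out it was -1.30 and passed (edgeR adjusted p = 0.0348), and with PBS 5 and NMDA 3 both left out it was -0.73 and passed (edgeR adjusted p = 0.0340).

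Those libraries were also high in markers of pigment cells. Mlana, a melanocyte gene, had 10.8 CPM in NMDA 3 and 0.307 to 1.02 CPM in the other NMDA libraries, against 8.37 CPM in PBS 5 and 0.886 to 1.05 CPM in the other PBS libraries. The 5 melanocyte markers summed to 26.6 to 690 CPM in NMDA libraries and 91.1 to 486 CPM in PBS libraries, and none of the 5 passed the test. With PBS 5 and NMDA 3 left out, the log2 fold changes of the members were 0.97 for Cnp, -0.73 for Mbp, -1.28 for Ermn and -1.42 for Mag, and all 4 passed (edgeR adjusted p up to 0.0191).

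**Figure D4:**
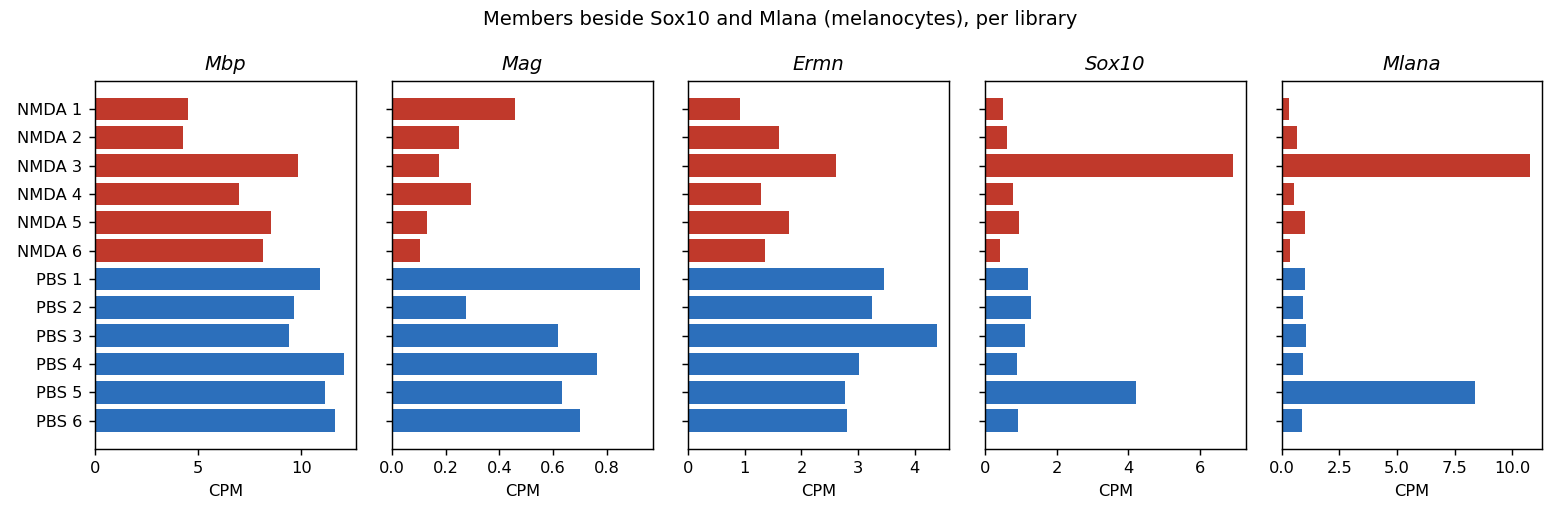
CPM per library (NMDA 1 to 6 in red above, PBS 1 to 6 in blue below) of Mbp, Mag and Ermn beside Sox10 and the melanocyte gene Mlana. NMDA 3 and PBS 5 stand out in the panels of Sox10 and Mlana (6.94 and 4.21 CPM of Sox10), whereas Mag in NMDA 3 (0.174 CPM) lies below NMDA 1, NMDA 2 and NMDA 4, and Mbp and Ermn are the highest of the NMDA group there.

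Schwann cell genes as a list gave 1 rise and 1 fall among 6 tested of 9, and 4 did not pass (median 0.29). Drp2, a dystrophin-related gene, fell by 0.62 (edgeR adjusted p = 0.00101), and Dhh, the desert hedgehog gene, rose by 0.38 (edgeR adjusted p = 0.0143). Cdh19, a cadherin gene, missed the threshold at -0.32 (edgeR adjusted p = 0.267), whereas leaving out NMDA 3 gave -0.57 and a pass (edgeR adjusted p = 0.0100). Prx, the periaxin gene, was at 0.53 ± 0.41 (edgeR adjusted p = 0.348). Egr2, Pmp2 and Ncmap did not pass the filter on low counts. They had 179, 14 and 6 counts in all NMDA libraries together, against 35, 11 and 0 counts in all PBS libraries together. Egr2 had 6 to 75 counts per NMDA library and 3 to 9 per PBS library. The list summed to 58.3 to 212 CPM in NMDA libraries, highest in NMDA 3, and to 91.4 to 117 CPM in PBS libraries. On average the largest parts of that sum were Fbln2 and Pmp22. Fbln2 had 3.10 to 110 CPM in NMDA libraries and 16.6 to 37.0 CPM in PBS libraries. Pmp22 had 14.1 to 45.6 CPM in NMDA libraries and 21.3 to 37.3 CPM in PBS libraries. Neither gene passed the test, and the sum cannot be assigned to Schwann cells alone.

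Oligodendrocyte precursor genes held 2 rises and 2 falls among 10 tested of 12 (median 0.06). Pdgfra, the growth factor receptor gene of precursors, which other stromal cells also express, averaged 40.1 ± 17.3 CPM after NMDA and 33.6 ± 6.96 CPM after PBS and did not pass (SD, n = 6 each; 0.26 ± 0.26, edgeR adjusted p = 0.472). Cspg4, the NG2 proteoglycan gene of precursors and pericytes, rose by 0.75, and Ptprz1, a receptor phosphatase gene of glia, by 0.95 on the log2 scale, both without overlap (edgeR adjusted p = 0.000174 and 0.000321). Tnr, the tenascin R gene, fell by 0.43 and Cspg5, a neural proteoglycan gene, by 0.22. The call of Cspg5 ended without NMDA 3, NMDA 4, NMDA 5, NMDA 6, PBS 1, PBS 2 or PBS 6 (adjusted p up to 0.0666).

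Genes of the contact between axon and myelin were mostly lower after NMDA, while those of the receptors that Mag binds were mixed. Of 16 genes in this list, all tested, 9 fell, 1 rose (Ngfr) and 6 did not pass, with a median of -0.41. Among the receptor genes, Rtn4r (edgeR adjusted p = 0.0489), Rtn4rl1 and Lingo1 fell and Ngfr rose, whereas Rtn4rl2, Tnfrsf19 and Lrp1 did not pass. Among the contact genes, Nfasc (-0.28), Cntn1 (-0.09) and Ank3 (-0.07) did not pass, whereas Cntn2 fell (-0.90). The 4 contact genes described next were those of smallest p in the list, and they fell too. Cntnap1 and Cntnap2 encode contactin-associated proteins next to the node of Ranvier, and Kcna1 and Kcna2 the potassium channels beside it. Cntnap1 averaged 122 ± 14.1 CPM after NMDA and 187 ± 18.4 CPM after PBS (SD, n = 6 each), and its log2 fold change was -0.61 ± 0.08. Cntnap2 fell by 0.61, Kcna1 by 0.62 and Kcna2 by 0.75, and the edgeR adjusted p of the 4 ran from 8.29e-05 to 0.000338. The groups did not overlap in any of these 4 genes. Neurons express all 4, and the ganglion cell sums given above moved with them. Their part was not tested.

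Pax2, a transcription factor gene of optic nerve head astrocytes, was low in both groups, with 0.576 ± 0.152 CPM after NMDA and 0.565 ± 0.259 CPM after PBS (SD, n = 6 each; 0.01 ± 0.31, edgeR adjusted p = 0.993). Its counts ran from 10 to 21 in NMDA libraries and from 6 to 25 in PBS libraries.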

How the data were processed

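Retinal total RNA of 12 rats was sequenced, 6 libraries per group. Whole-number counts per gene and FPKM values were deposited by the authors, per the file headers. Bowtie2, RSEM 1.3.1 and DESeq2 1.4.5 appear in the submitters' processing notes with no role stated. In 9871 genes of 200 or more counts per library, FPKM was the count divided by 1 gene length and the library total (largest relative spread 4.09e-06). The sources used here give no genome build, strand setting or multi-mapping rule.

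Counts were filtered with filterByExpr (minimum 10, total 15), scaled by TMM and fitted with edgeR 4.0.16 in R 4.3.3 (robust quasi-likelihood, group as the only term). SE is the log2 fold change divided by the root of F. The pipeline was tested on simulated data. No library pair was identical. Alternatives used DESeq2 1.42.0, limma 3.58.1, other scalings and filters, and left out libraries.

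The members, 14 other lists (157 of 159 symbols found in all) and tests were chosen with earlier results of these data known. The members are named in any case, with Sox10, Pdgfra, Gfap and Pax2, up to 4 genes of smallest p in each of 6 related lists, and the 5 genes most like the members. Zfp57, Mlana, Opalin, Nkx2-2, Gpr17, Neu4, Ugt8, Fa2h, Gal3st1, Ngfr, P2ry12, Rpe65, Bsg and Rlbp1 were named after their values were seen. The same holds for Rtn4r, Rtn4rl1, Rtn4rl2, Lingo1, Tnfrsf19, Lrp1, Cryab, Fbln2 and Pmp22. It also holds for Nfasc, Cntn1, Cntn2, Ank3, Egr2, Pmp2 and Ncmap. Some genes of the lists are not reported here and stay out of the list counts and sums.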

Additional observations from a re-analysis of the deposited data

Results flagged for a closer look

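In a group of 6 libraries, 1 library was taken as standing apart where its gap to the nearest other exceeded 0.625 of the group's range. Among 82 such groups of the named genes 8 met this, and chance gives about 1 in 20. No member met it. NMDA 3 was the highest NMDA library for Sox10 (6.94 CPM, next 0.955) and Trim7 (3.89 CPM, next 2.50). PBS 5 was the highest PBS library for Sox10 (4.21 CPM, next 1.29). NMDA 1 was the lowest NMDA library for Cers2 (38.4 CPM, next 51.9) and Tcf7l2 (11.6 CPM, next 14.5). NMDA 2 was the highest NMDA library for Cspg4 (17.0 CPM, next 14.1). PBS 3 was the highest PBS library for Zfp488 (42.2 CPM, next 33.1), and PBS 1 for Cntnap1 (222 CPM, next 190.3).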

How the results depend on the processing

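All 4 tested members kept their direction and their call in every alternative that gave them a value. Leaving out 1 library gave log2 fold changes of -0.74 to -0.51 for Mbp, -1.79 to -1.34 for Mag, -1.23 to -0.93 for Ermn and 0.80 to 0.93 for Cnp. With limma on log2(FPKM + 1) Mag was at -0.16 and Ermn at -0.39, since the pseudocount of 1 is above their FPKM. A filter of 10 CPM in 6 libraries left Cnp alone, so that 1 member was called and Mbp, Mag and Ermn had no value. Scaling by library size only moved the median of all genes to 0.06 from 0.01. Of 33 other tested named genes, 25 kept direction and call under all alternatives.

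The list of other myelin and mature oligodendrocyte genes had 2 rises without NMDA 1 and NMDA 3 together, 0 with no filter, the stricter filter, the replicate block, limma on either FPKM scale and without PBS 5 and NMDA 3, and 0 to 2 without 1 library. Lineage factors had 1 fall under the stricter filter and 4 without PBS 5 and NMDA 3. Precursor genes had 1 fall with library size only and with limma on log2(FPKM + 1) and log2(FPKM + 0.1), and 1 to 3 without 1 library. Schwann cell genes had 2 rises with no filter and without NMDA 1 and NMDA 3, 2 falls with either pair left out, and 1 to 2 of each without 1 library.

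Sox10 reversed to -0.58 with the replicate block, -1.23 without NMDA 1 and NMDA 3, -0.73 without PBS 5 and NMDA 3, and -0.045 and -0.32 with limma on log2(FPKM + 1) and log2(FPKM + 0.1). It ran from -1.30 to 0.67 without 1 library. Pax2, near 0 throughout, reversed to -0.0057 with DESeq2 size factors, -0.0047 with the DESeq2 Wald test, -0.037 without NMDA 1 and NMDA 3 and -0.11 without PBS 5 and NMDA 3, and ran from -0.12 to 0.20 without 1 library. The causes were not tested.

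Equal replicate numbers are not said to mark a shared litter or day, and deviations of libraries with the same number correlated at -0.19 to 0.15, with 0 of 6 best matched by their own number. With the replicate block 5593 genes were called in place of 6167, and the members had log2 fold changes of -0.68 (Mbp), -1.49 (Mag), -1.09 (Ermn) and 0.86 (Cnp), all still called. Among other named genes the block ended the calls of Anln and Plpp1, gave Trim7 a call and reversed Sox10. Depth limits Mobp, Mog, Olig1 and Olig2, whose counts of 0 to 7 allow no comparison. The edgeR p-values set the difference between the groups against the spread between these libraries within a group.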
